A study of Mus musculus with 15 samples.

Results

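Stress granules and P-bodies are cytoplasmic assemblies of messenger RNA and protein without a membrane. Stress granules hold stalled translation initiation complexes and form around nucleating RNA-binding proteins such as G3BP1 and TIA1, while P-bodies gather translational repressors and the enzymes that remove the cap and degrade messenger RNA. RBM20 is a cardiac splicing regulator that normally sits in the nucleus, and mutations of its arginine- and serine-rich domain are known to leave it in the cytoplasm, in granules that share proteins with stress granules. The values below are transcript levels of the genes that encode granule proteins, and neither granules nor proteins were measured. All 35 transcripts of a list of stress granule and P-body components were found by symbol among 40174 symbols, and all 35 were among the 17588 genes that passed the filter on low counts.

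RNA came from left ventricles of C57BL/6 mice, 2 months old, with point mutations of Rbm20 or none. The 5 groups were G-line HOM (labelled Rbm20 S639G -/-), G-line HET (S639G +/-), A-line HOM (S637A -/-), A-line HET (S637A +/-) and WT, and no drug or other allele was named for any of them. The labels name 15 libraries, 3 a group, but replicates 2 and 3 of A-line HOM and of WT were identical in the deposited counts, symbol by symbol. They were used once, as WT, which left 13 libraries and A-line HOM with 1 library, whose spread was assumed to be like that of the other groups. The labels do not settle which name is right for the shared pair. Nor do they say that libraries of a group came from different animals, so p-values cover the spread between these libraries, which may be technical.

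The alleles lie next but one to each other in the arginine- and serine-rich stretch of Rbm20, on mouse chromosome 19, in exon 9 of the GENCODE M21 annotation (GRCm38). The reference coding sequence of codons 630 to 645 is shown for where the lines differ, with codon 637 (TCT, changed by S637A) and codon 639 (AGT, changed by S639G) in capitals, both encoding serine.
Rbm20 codons 630 to 645: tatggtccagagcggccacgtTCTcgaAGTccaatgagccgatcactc

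Library totals ran between 20324529 and 29436407 counts in G-line HOM, 23714906 and 28121438 in G-line HET, 12959087 and 17448328 in A-line HET, and 25279202 and 26549906 in WT, with 17507813 in A-line HOM. The A-line libraries were the shallowest, so line and depth cannot be told apart. Rbm20 itself stood between 356.9 and 495.5 CPM (counts scaled to library size with TMM factors) over all libraries, and its adjusted p was 0.932 in G-line HOM, 0.907 in G-line HET, 0.195 in A-line HOM and 0.775 in A-line HET, each against WT. The point mutations leave the transcript in place, so its level does not check the labels. Ventricular cardiomyocyte markers such as Myh6 and Myl2 were abundant in every library, though Nkx2-5, a transcription factor on the list, was low. The summed level of the 12 listed was between 51634 and 56209 CPM in G-line HOM, against 68990 and 76927 CPM in WT. Of the 12, 6 were called lower in G-line HOM and 1 higher (58.3%). Mybpc3 went against the sum, with 4552 to 5715 CPM in G-line HOM and 3303 to 4082 CPM in WT. Summed fibroblast markers (10 genes, of which 5, or 50%, were higher in G-line HOM) ran from 4017 to 5379 CPM in G-line HOM, against 1790 to 3328 CPM in WT. Summed smooth muscle and pericyte markers (3 of 7 tested lower, 42.9%) stood between 872 and 1201 CPM in G-line HOM, against 1656 and 1728 CPM in WT. Endothelial markers (2 of 8 lower, 25%) summed to between 992 and 1145 CPM in G-line HOM, against 1207 and 1330 CPM in WT. Over all genes 26.4% were called in this comparison, which the endothelial share was near. Mitochondrial ribosomal RNA took 10.8 to 13.5% of counts in G-line HOM and at most 17.1% in any mutant library, against 20.2 to 23.4% in WT. In whole ventricle, fewer cells of a type and less RNA per cell cannot be told apart, and the part of cell composition or RNA makeup in the member values was not tested. The atrial light chain Myl7 reached 45.8 CPM in replicate 1 of G-line HOM, 240.1 CPM in replicate 3 of A-line HET and 524 CPM in replicate 2 of WT, and was at 3.43 CPM or less elsewhere.

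Per kilobase of exon (union of GENCODE M21 exons, which counts rarely used long ends too), the granule transcripts covered a wide range of levels in WT. Ybx1, the Y-box protein that coats messenger RNA, led at 139.8 CPM per kb. It was followed by Pabpc4, a cytoplasmic poly(A)-binding protein, at 50.5 CPM per kb and the RNA helicase Ddx3x at 50.3 CPM per kb. Fxr1, the muscle-enriched FMRP homologue, stood at 32.7 CPM per kb and its relative Fxr2 at 23.2 CPM per kb, whereas Fmr1 was at 2.64 CPM per kb. The decapping enhancers Edc3 at 1.93 CPM per kb and Dcp1a at 2.30 CPM per kb were the lowest, with Usp10, a G3BP-binding deubiquitinase, at 2.30 CPM per kb. Exons of 14 members overlap those of another gene in that annotation, and of the members described below with every library this touches Fmr1 alone. Hnrnpa1, Pabpc1 and Ybx1 have processed pseudogene copies, so the division of their reads is uncertain.

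In G-line HOM against WT, 9 of 35 granule transcripts passed the test (25.7%; edgeR's quasi-likelihood test, adjusted p under 0.05), and the background was 26.4% of all genes tested. Of the 9, 6 were higher (Nufip2, Fmr1, Dcp2, Ddx6, Ddx3x and Tial1; background 13.1%) and 3 were lower (Pabpc4, Stau2 and Ybx1; background 13.3%). The share called was thus near that of all genes. The sizes were small: the median absolute log2 fold change was 0.17 over the members and 0.31 over all genes, and 0.37 over the 9 called members and 0.74 over all called genes. No member moved by a log2 fold change of 1 or more, which 13% of all genes did, and 2 members moved by more than 0.5, against 32.9% of all genes. These all-gene values are not matched for expression level. Libraries of G-line HOM and WT did not overlap for 17 members (48.6%), against 41.7% of all genes.

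**Figure D1:**
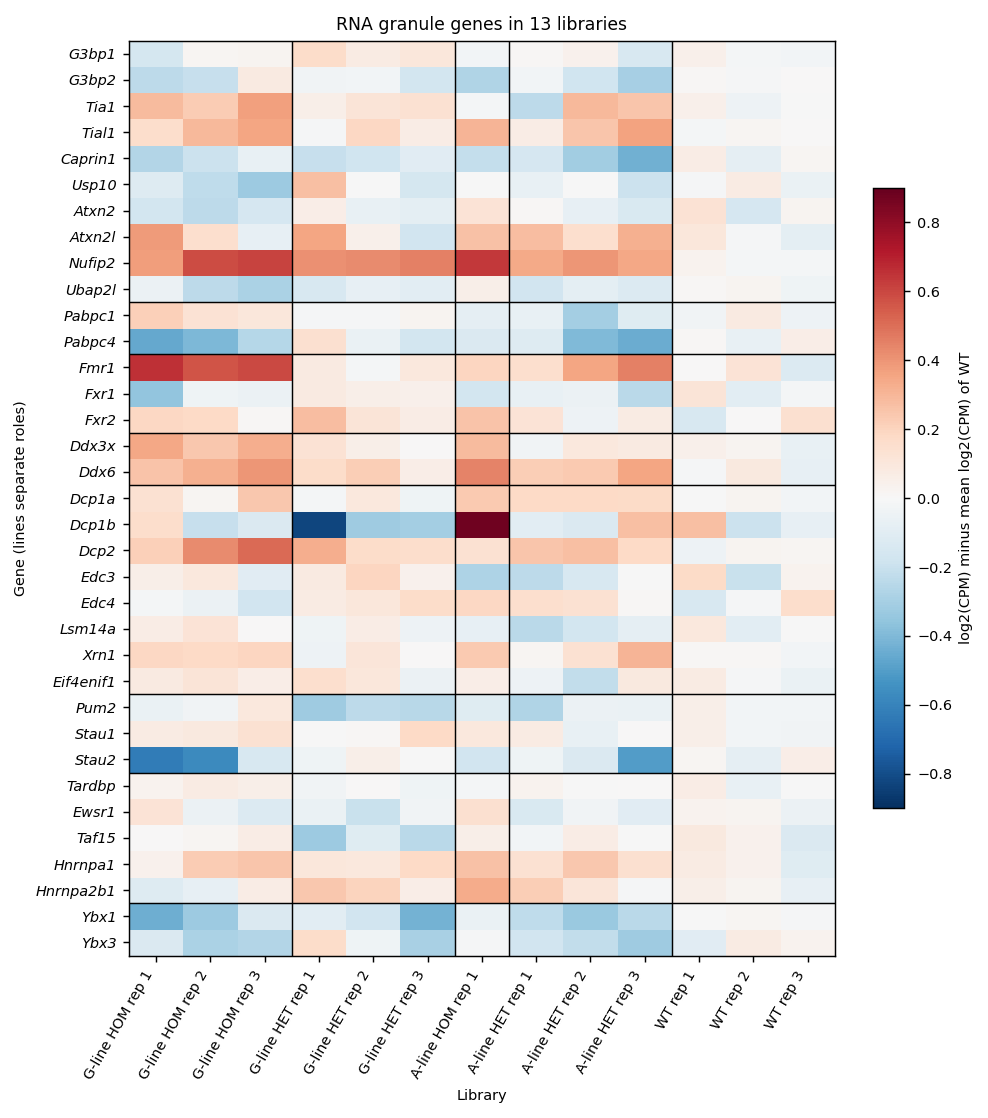
Difference of each of the 35 transcripts (rows, ordered by role) in each of the 13 libraries (columns) from the WT mean, in log2 CPM, on a colour scale centred on 0. The rows of Nufip2, Ddx6, Dcp2 and Hnrnpa1 are above the WT mean in all 10 mutant libraries, and those of Ybx1 and Caprin1 below it. Most other rows hold small differences of both signs.

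Nufip2 encodes an FMRP-interacting RNA-binding protein found in stress granules. It was the 1 member of 35 that passed the test, as higher, in all 4 mutant groups against WT. The share of all genes that did so was not computed, and Cnot6 and Zfp36l1, described below, also did. Nufip2 stood at 165, 191 and 194 CPM in G-line HOM and at 169, 170.1 and 174 CPM in G-line HET. In the A-line it stood at 197 CPM in the HOM library and at 161, 167 and 162 CPM in HET, while the WT libraries were at 129.997, 126 and 125 CPM. Every mutant library lay above every WT library, and the lowest of them was in A-line HET. The log2 fold change against WT was 0.53 ± 0.08 in G-line HOM (SE; adjusted p = 0.000267), 0.43 ± 0.08 in G-line HET (adjusted p = 0.00478), 0.64 ± 0.11 in A-line HOM (adjusted p = 0.00482) and 0.36 ± 0.08 in A-line HET (adjusted p = 0.0125). These comparisons share the WT libraries and are therefore not independent of each other. With the shared pair left out, WT replicate 1 alone stood for WT, and the value was 0.49 in G-line HOM (adjusted p = 0.0275), 0.39 in G-line HET (adjusted p = 0.152), 0.60 in A-line HOM (adjusted p = 0.102) and 0.33 in A-line HET (adjusted p = 0.243). With the pair named A-line HOM instead, all 4 calls were lost, and the value was 0.50 in G-line HOM (adjusted p = 0.168), 0.40 in G-line HET (adjusted p = 0.428), 0.20 in A-line HOM (adjusted p = 0.986) and 0.33 in A-line HET (adjusted p = 0.540). Without WT replicate 3 the A-line HET call was also lost (0.35, adjusted p = 0.0618).

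Fmr1 encodes FMRP, a polysome-associated translational repressor and stress granule component. In the G-line it was at 37.3, 34.96 and 35.7 CPM in HOM and at 24.96, 23.4 and 25.3 CPM in HET. The A-line HOM library had 27.1 CPM and the A-line HET libraries 26.2, 30.3 and 32.4 CPM, against 23.7, 25.7 and 21.7 CPM in WT. The G-line HOM libraries lay above all others, whereas G-line HET overlapped WT and A-line HET lay between. Fmr1 was higher in G-line HOM than in WT by a log2 fold change of 0.60 ± 0.10 (adjusted p = 0.000457) and higher than in G-line HET by 0.55 ± 0.10 (adjusted p = 0.00345). Both calls held in all 24 alternatives run for each, with values of 0.54 to 0.67 and of 0.52 to 0.57. The value against WT was 0.05 in G-line HET (adjusted p = 0.818), 0.19 in A-line HOM (adjusted p = 0.506) and 0.32 in A-line HET (adjusted p = 0.0590). Of the FMRP homologues, Fxr1 averaged 194 ± 22.9 CPM in G-line HOM and 214 ± 15.9 CPM in WT, and Fxr2 95.1 ± 6.34 and 87.3 ± 8.65 CPM in the same groups (SD, n = 3 each). Neither passed the test in any comparison.

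**Figure D2:**
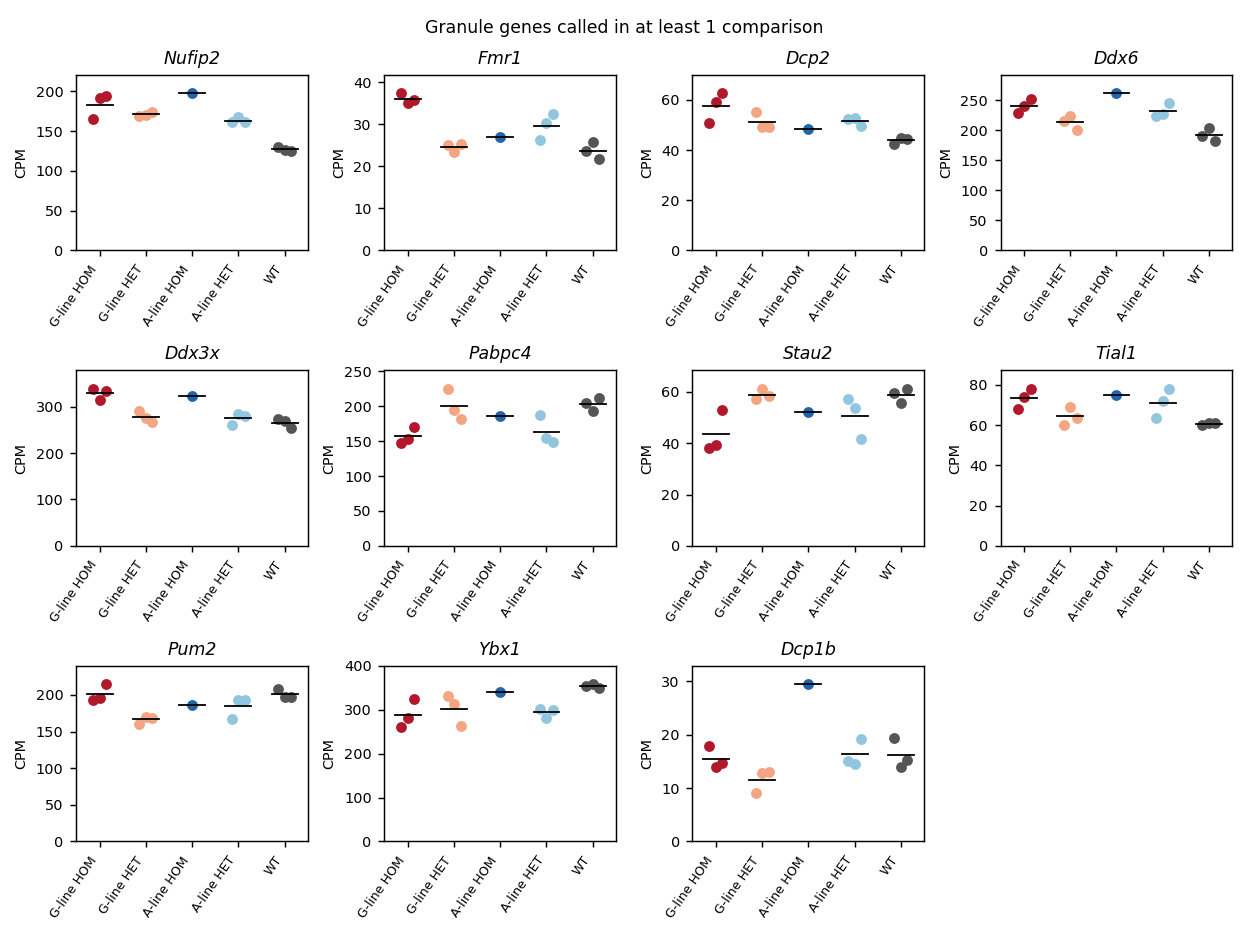
Level in CPM (vertical axis, starting at 0) of the 11 transcripts called in at least 1 comparison, 1 panel each, with 1 point a library, mutant groups left of WT and a bar at each group mean. Fmr1 is higher in the 3 G-line HOM libraries than in all others, and Nufip2 is lowest in the 3 WT libraries.

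Both DEAD-box helicases on the list were higher in G-line HOM, where 13.1% of all genes were called higher. Ddx6, the P-body helicase that links repression to decapping, had 229, 239.7 and 252 CPM in the G-line HOM libraries and 215.5, 224 and 199.99 CPM in G-line HET. The A-line HOM library had 261 CPM and the A-line HET libraries 224, 226 and 246 CPM, against 191, 204 and 182 CPM in WT. G-line HOM, A-line HOM and A-line HET lay above the WT libraries, and G-line HET overlapped them. The log2 fold change was 0.32 ± 0.08 in G-line HOM (adjusted p = 0.0104), 0.44 ± 0.12 in A-line HOM (adjusted p = 0.0430) and 0.27 in A-line HET (adjusted p = 0.0628). Ddx3x, which unwinds structured leaders during translation initiation, reached 338, 314 and 333 CPM in G-line HOM, 291, 275 and 266 CPM in G-line HET and 274, 269 and 253.5 CPM in WT. In the A-line it had 323 CPM in HOM and 260.1, 284 and 280.4 CPM in HET. The G-line HOM libraries did not overlap those of WT, whereas both HET groups did, and the log2 fold change in G-line HOM was 0.31 ± 0.08 (adjusted p = 0.0108). Without WT replicate 3 the G-line HOM calls of Ddx6 (0.28, adjusted p = 0.0581) and Ddx3x (0.27, adjusted p = 0.0594) were lost, and without the 3 libraries with Myl7 that of Ddx3x was lost (0.30, adjusted p = 0.0554). The A-line HOM call of Ddx6 was lost without WT replicate 1 or 3 (adjusted p = 0.0997 and 0.130) and without any 1 of G-line HOM replicate 2 or the 3 G-line HET libraries, with an adjusted p of 0.0559 to 0.0651.

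Dcp2 encodes the enzyme that removes the cap. It was the only 1 of 8 transcripts of the decapping and decay role to pass in G-line HOM (12.5%, against 26.4% of all genes). Ddx6, also a P-body component, is counted with the helicases above. Dcp2 stood at 51.0, 59.0 and 62.6 CPM in G-line HOM, 55.1, 49.3 and 49.1 CPM in G-line HET, 48.3 CPM in A-line HOM and 52.2, 53.0 and 49.7 CPM in A-line HET. The WT libraries, at 42.6, 44.7 and 44.4 CPM, were the lowest of all. The log2 fold change was 0.39 ± 0.09 in G-line HOM (adjusted p = 0.00477), 0.22 in G-line HET (adjusted p = 0.152), 0.14 in A-line HOM (adjusted p = 0.621) and 0.23 in A-line HET (adjusted p = 0.135). Leaving out any single library kept the G-line HOM call, and leaving out the shared pair ended it (adjusted p = 0.0666). Dcp1b, a partner that activates DCP2, was called in A-line HOM alone, where it had 29.4 CPM, against 19.3, 13.96 and 15.2 CPM in WT. It had 17.8, 13.9 and 14.6 CPM in G-line HOM, 9.00, 12.8 and 12.9 CPM in G-line HET and 14.97, 14.6 and 19.2 CPM in A-line HET, so the single A-line HOM library lay above the other 12. The log2 fold change of 0.86 ± 0.23 (adjusted p = 0.0459) rests on that library and lost its call without WT replicate 2 or 3 (adjusted p = 0.101 and 0.124), and without G-line HOM replicate 2 or G-line HET replicate 2 or 3 (adjusted p = 0.0584 to 0.0599). With the shared pair named A-line HOM the value was 0.009 (adjusted p = 0.996), with the pair left out 0.60 (adjusted p = 0.362), and without the 3 libraries with Myl7 0.77 (adjusted p = 0.0624). The other 6 members of this role, Dcp1a, Edc3, Edc4, Lsm14a, Xrn1 and Eif4enif1, passed in no comparison, and the 5′-to-3′ exonuclease Xrn1 had 84.5 ± 0.33 CPM in G-line HOM and 74.2 ± 0.98 CPM in WT (SD, n = 3 each; log2 fold change 0.19, adjusted p = 0.114).

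Among the 10 stress granule nucleators and their partners, Tial1 passed beside Nufip2 in G-line HOM (20%, against 26.4% of all genes). Tial1, whose protein TIAR binds U-rich messenger RNA and carries a prion-like domain, had 67.9, 74.2 and 77.8 CPM in G-line HOM and 60.3, 69.1 and 63.6 CPM in G-line HET. It had 74.96 CPM in A-line HOM and 63.5, 72.2 and 78.0 CPM in A-line HET, against 59.9, 61.3 and 60.9 CPM in WT. G-line HOM and both A-line groups lay above WT, and G-line HET overlapped it. The log2 fold change in G-line HOM was 0.27 ± 0.09 (adjusted p = 0.0391). The call was lost without any 1 of G-line HOM replicates 2 and 3, G-line HET replicate 3 or the 3 WT libraries, with an adjusted p of 0.0529 to 0.110. Tia1, its paralogue, averaged 54.3 ± 2.65 CPM in G-line HOM and 44.2 ± 1.32 CPM in WT (SD, n = 3 each; log2 fold change 0.29, adjusted p = 0.0672). G3bp1, the central nucleator, was close to level at 98.4 ± 6.92 CPM in G-line HOM, 109 ± 3.47 in G-line HET, 99.1 in A-line HOM, 98.97 ± 6.71 in A-line HET and 101 ± 2.65 in WT (SD, n = 3 except A-line HOM). Its log2 fold change against WT ran from -0.04 in G-line HOM to 0.12 in G-line HET. Caprin1, which binds G3BP1 and promotes condensation, had 168 ± 16.3 CPM in A-line HET and 206 ± 10.4 CPM in WT (SD, n = 3 each; log2 fold change -0.30, adjusted p = 0.0584). G3bp2, Usp10, Atxn2, Atxn2l and Ubap2l also passed in no comparison.

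**Figure D3:**
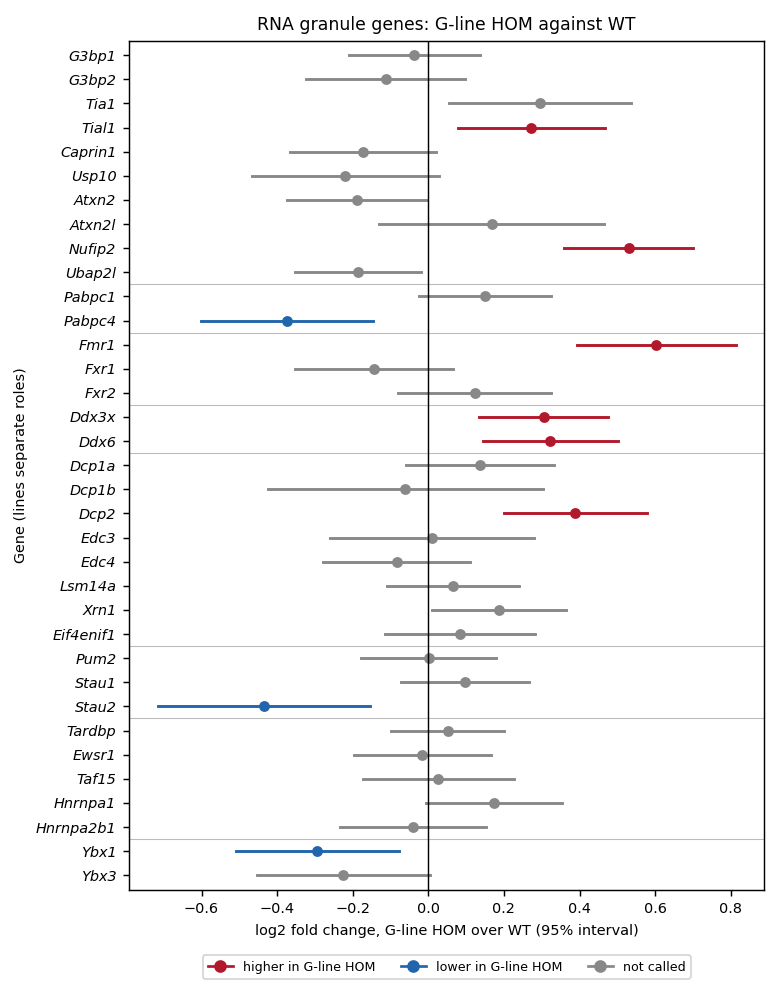
Log2 fold change of G-line HOM over WT (horizontal axis) for the 35 transcripts (rows, grouped by role), with points for the estimate, lines for its 95% interval from edgeR, and colour for adjusted p under 0.05 (red higher, blue lower, grey not called). Red points lie between 0.27 and 0.60 and blue points between -0.43 and -0.29.

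The 3 transcripts that were lower in G-line HOM belong to different roles, and all 3 calls were lost without the 3 libraries with Myl7 (Pabpc4 -0.36, adjusted p = 0.0660; Stau2 -0.38, adjusted p = 0.0580; Ybx1 -0.21, adjusted p = 0.256). Pabpc4 had 147, 153 and 170.2 CPM in G-line HOM, 225, 195 and 182 CPM in G-line HET, 185 CPM in A-line HOM, 187, 154.5 and 149 CPM in A-line HET and 205, 194 and 211 CPM in WT. All 3 G-line HOM libraries were below all G-line HET and WT libraries. Its log2 fold change was -0.37 ± 0.11 against WT (adjusted p = 0.0176) and -0.35 ± 0.11 against G-line HET (adjusted p = 0.0391), while the other poly(A)-binding protein transcript, Pabpc1, had 62.8 ± 2.56 CPM in G-line HOM and 56.6 ± 2.72 CPM in WT (SD, n = 3 each; log2 fold change 0.15, adjusted p = 0.198). Without G-line HOM replicate 1 or 2, or WT replicate 1 or 3, the Pabpc4 call against WT was lost (adjusted p = 0.0517 to 0.0690), and that against G-line HET was lost without any of these or without G-line HET replicate 1 or 2 (adjusted p = 0.0525 to 0.162).

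Stau2 encodes a double-stranded RNA-binding transport protein. It had 37.9, 39.3 and 53.1 CPM in G-line HOM, 57.2, 60.9 and 58.5 CPM in G-line HET, 51.9 CPM in A-line HOM, 57.1, 53.5 and 41.4 CPM in A-line HET and 59.5, 55.5 and 61.1 CPM in WT. G-line HOM replicate 3 stood nearer to WT than replicates 1 and 2, yet all 3 were below the G-line HET and WT libraries. Stau2 differed by a log2 fold change of -0.43 ± 0.13 from WT (adjusted p = 0.0236) and of -0.44 ± 0.13 from G-line HET (adjusted p = 0.0378). The call against WT was lost without G-line HOM replicate 1 or 2, or WT replicate 1 or 3 (adjusted p = 0.0678 to 0.109), and that against G-line HET without any of these or without any 1 G-line HET library (adjusted p = 0.0520 to 0.148). Its paralogue Stau1, which also takes part in decay of bound messenger RNA, had 45.1 ± 1.06 CPM in G-line HOM and 42.2 ± 1.42 CPM in WT (SD, n = 3 each; log2 fold change 0.10, adjusted p = 0.413).

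Ybx1 had 261, 282 and 323 CPM in G-line HOM, 331, 313 and 264 CPM in G-line HET, 339.7 CPM in A-line HOM, 302, 281 and 299 CPM in A-line HET and 353, 358 and 351 CPM in WT. Every mutant library was below the WT libraries. Against WT, the log2 fold change of Ybx1 was -0.29 ± 0.10 in G-line HOM (adjusted p = 0.0443), -0.23 in G-line HET (adjusted p = 0.200), -0.06 in A-line HOM (adjusted p = 0.878) and -0.27 in A-line HET (adjusted p = 0.131). The G-line HOM call was lost in 16 of 24 alternatives, including the omission of G-line HOM replicate 1 or 2, G-line HET replicate 2, A-line HET replicate 3 or any WT library (adjusted p = 0.0538 to 0.163). The other Y-box transcript, Ybx3, had 46.9 ± 2.77 CPM in G-line HOM and 54.8 ± 3.43 CPM in WT (SD, n = 3 each; log2 fold change -0.22, adjusted p = 0.142).

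The 5 transcripts of nuclear RNA-binding proteins that enter stress granules when they reach the cytoplasm, Hnrnpa1, Hnrnpa2b1, Tardbp, Ewsr1 and Taf15, passed in no comparison. Tardbp, which encodes TDP-43, had 83.7 ± 1.07 CPM in G-line HOM, 79.6 ± 1.25 in G-line HET, 79.9 in A-line HOM, 81.3 ± 1.04 in A-line HET and 80.8 ± 3.81 in WT (SD, n = 3 except A-line HOM). Hnrnpa2b1 was at 298 CPM in A-line HOM and 236 ± 10.9 CPM in WT (SD, n = 3; log2 fold change 0.34, adjusted p = 0.155). The members nearest to 0 in G-line HOM against WT were Pum2, at a log2 fold change of 0.001, Edc3 at 0.01 and Ewsr1 at -0.02. Of the 26 members that did not pass in G-line HOM, the 95% interval of 25 lay within 0.5 of 0 on the log2 scale, so changes larger than that are outside the interval for these 25. The same held for 33 of 34 in G-line HET, 22 of 32 in A-line HOM and 31 of 34 in A-line HET.

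Fewer members passed in the other groups. In G-line HET against WT the count was 1 of 35 (2.86%), with 7.52% of all genes. In A-line HOM it was 3 of 35 (8.57%), with 4.68% of all genes, and in A-line HET 1 of 35 (2.86%), with 7.96% of all genes. The median absolute log2 fold change of the members was 0.09 in G-line HET, 0.17 in A-line HOM and 0.13 in A-line HET, against 0.22, 0.29 and 0.22 over all genes. Libraries did not overlap those of WT for 12 members in G-line HET (34.3%; 31.5% of all genes), for 27 in A-line HOM (77.1%; 67.8%) and for 17 in A-line HET (48.6%; 26.1%). The counts depended on single libraries, and the share of all genes called moved as well. In A-line HET the count was 7 without A-line HET replicate 1 (11.6% of all genes). It was 2 without G-line HOM replicate 3 (9.24%) and 0 without WT replicate 3 (3.61%). In A-line HOM it was 1 without G-line HOM replicate 2, G-line HET replicate 2 or 3, or WT replicate 3 (2.31 to 3.77%). In G-line HET it was 2 without A-line HET replicate 1 (9.27%). The G-line HOM count was 5 without G-line HOM replicate 2 (19.9%) or WT replicate 1 (19.8%), and 3 without WT replicate 3 (19.1%).

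**Figure D4:**
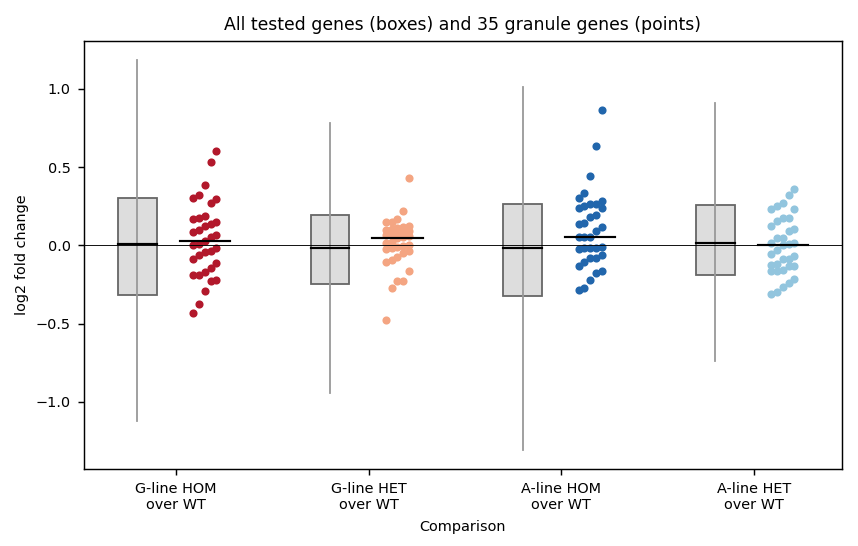
Log2 fold change against WT (vertical axis) in G-line HOM, G-line HET, A-line HOM and A-line HET. Points are the 35 granule transcripts with a line at their median, and boxes give the quartiles of all genes tested with a line at the median and whiskers from the 5th to the 95th percentile; member medians are 0.03, 0.05, 0.06 and 0.005, all-gene medians 0.01, -0.01, -0.01 and 0.02.

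Between the genotypes of the G-line, 4 of 35 members differed (11.4%), with 14.6% of all genes. Fmr1 and Pum2 were higher in HOM, and Stau2 and Pabpc4 were lower. Pum2, a Pumilio protein that represses messenger RNA through their 3′ ends, had 193, 196 and 214 CPM in G-line HOM, 161, 170.3 and 169 CPM in G-line HET, 187 CPM in A-line HOM, 167, 193 and 193 CPM in A-line HET and 208, 197 and 197 CPM in WT. The G-line HET libraries were below those of both G-line HOM and WT. HOM exceeded HET by a log2 fold change of 0.27 ± 0.08 (adjusted p = 0.0429), and G-line HET differed from WT by -0.27 (adjusted p = 0.0650). The HOM-to-HET call of Pum2 was lost in 20 of 24 alternatives, including the omission of any 1 library other than A-line HET replicates 1 and 2 (adjusted p = 0.0504 to 0.137). Without G-line HOM replicate 1 or 2, G-line HET replicate 1 or 2, or WT replicate 1 or 3, the count of 4 fell to 1. The share of all genes called fell as well, to between 6.67 and 13.3%. Without G-line HET replicate 3 the count fell to 2, with 8.49% of all genes.

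Ordered by group mean in the G-line, 13 members stood highest in HOM, then HET, then WT (37.1%; 23.7% of all genes), among them Nufip2, Fmr1, Ddx6, Ddx3x, Dcp2 and Tial1. For 7 members the order was reversed, with WT highest (20%; 21.9% of all genes), among them Pabpc4, Ybx1 and Caprin1. In the other 15 (42.9%; 54.3% of all genes), including G3bp1, Stau2 and Pum2, the HET mean lay outside the range of HOM and WT.

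No member differed between A-line HOM and A-line HET by edgeR, with 0.0227% of all genes called. At an unadjusted p under 0.05 there were 2 of 35 members and 813 of all 17588 genes. DESeq2 called 0 members and 0.142% of all genes. None differed between A-line HET and G-line HET either, with 0.0284% of all genes called. Here 4 of 35 members and 2331 of the 17588 genes had an unadjusted p under 0.05. DESeq2 called 0 members and 1.43% of all genes for these groups. Without A-line HET replicate 1 edgeR called 1 member (Pabpc4) and 3.47% of all genes. The test of whether the HOM-to-HET difference was itself different between the lines called 0 of 35 (0.0171% of all genes). In that test 5 of 35 members and 2439 of the 17588 genes had an unadjusted p under 0.05, and DESeq2 was not run. For Fmr1 the HOM-to-HET log2 fold change was -0.13 in the A-line, where 1 HOM library was measured, against 0.55 in the G-line. The test between the lines did not call Fmr1, so it is not shown that the lines differ for it.

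A further 86 genes of neighbouring pathways gave the setting in which the members lie, and all 86 passed the filter. In G-line HOM against WT, 18 were higher and 8 lower (30.2%, with 26.4% of all genes). In G-line HET it was 2 higher and 1 lower (3.49%, with 7.52% of all genes), in A-line HOM 7 higher and 1 lower (9.30%, with 4.68%) and in A-line HET 5 higher and 2 lower (8.14%, with 7.96%). Translation initiation factors and eIF2 kinases or phosphatases gave 7 higher and 1 lower of 16 in G-line HOM (50%), with a median log2 fold change of 0.10 over the list and 0.01 over all genes. Ppp1r15a, the stress-induced subunit that recruits the phosphatase to eIF2α, had 23.8 ± 3.99 CPM in G-line HOM and 9.79 ± 0.39 CPM in WT (SD, n = 3 each; log2 fold change 1.28, adjusted p = 3.46e-05). Eif3a, the scaffold of the eIF3 complex found in stress granules, had 313 ± 17.3 and 221 ± 3.002 CPM in these groups (log2 fold change 0.50, adjusted p = 0.00106).

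Of the 15 deadenylase genes, whose enzymes shorten the poly(A) tail, 3 were higher and 1 lower in G-line HOM (26.7%, near the 26.4% of all genes). Cnot6, a catalytic subunit, had 70.6 ± 2.95 CPM in G-line HOM and 41.6 ± 1.23 CPM in WT (SD, n = 3 each; log2 fold change 0.76, adjusted p = 8.23e-05). Cnot7, another catalytic subunit, was lower (-0.47, adjusted p = 0.0103). Cnot6 was also called higher in G-line HET (0.41, adjusted p = 0.0197), A-line HOM (0.56, adjusted p = 0.0288) and A-line HET (0.50, adjusted p = 0.00594). Among 10 genes whose products bind AU-rich or other 3′ elements, 3 were higher and 1 lower (40%, against 26.4% of all genes). Zfp36l1, which recruits deadenylases to AU-rich messenger RNA, had 39.0 ± 3.36 CPM in G-line HOM and 18.0 ± 2.64 CPM in WT (SD, n = 3 each; log2 fold change 1.11, adjusted p = 2.30e-05). It was called higher in each of the other 3 mutant groups too, by 0.69 in G-line HET, 0.85 in A-line HOM and 0.89 in A-line HET, all against the same WT libraries.

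Micro-RNA silencing genes numbered 3 higher and 2 lower of 9 in G-line HOM (55.6%, against 26.4% of all genes), with the GW182 scaffold Tnrc6a higher (0.46, adjusted p = 0.00370) and the Argonaute Ago4 lower (-0.64, adjusted p = 0.00246). Of the 10 LSM ring and decapping partners 2 passed (20%, below the share of all genes), both lower, namely Lsm14b (-0.69, adjusted p = 0.00193) and Patl1 (-0.42, adjusted p = 0.0205), both of which act with DDX6 in repression or decapping. Further stress granule proteins gave 2 higher and 1 lower of 18 (16.7%), and the higher ones were the cold-inducible Rbm3 (0.90, adjusted p = 0.000440) and Tdrd3 (0.56, adjusted p = 0.000663). Among the 8 nonsense-mediated decay genes the smallest adjusted p in G-line HOM against WT was 0.105, of the kinase gene Smg1 (0.20). Upf2, a core factor of that pathway, was lower in G-line HET than in WT (-0.47, adjusted p = 0.0115) and higher in G-line HOM than in G-line HET (0.33, adjusted p = 0.0432), and Smg5 was lower in G-line HOM than in G-line HET (-0.23, adjusted p = 0.0475).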

How the data were processed

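Total RNA was extracted with TRIzol, treated with DNase I and made into TruSeq total RNA Gold libraries, per the labels' protocols. Reads were processed with bcl2fastq 2.20.0.422, Trimmomatic 0.39 and STAR 2.7.4a on mm39 (GRCm39), per the submitters' processing notes. The authors deposited raw read counts by symbol, used here unchanged. How reads were counted (program, annotation, strand) was not given in the sources used here, so reads of overlapping genes cannot be told apart.

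Genes needed at least 3 libraries at the CPM of 10 counts in the median library (0.422 CPM) and at least 15 counts in all. CPM was computed here with TMM factors. One edgeR 4.0.16 model with a mean per group over 13 libraries (8 residual degrees of freedom) gave two-sided robust quasi-likelihood F tests, Benjamini-Hochberg adjusted over all genes, with a threshold of 0.05. SE is the log2 fold change divided by the root of F. The procedure was also run on counts simulated from the fitted dispersions, with far fewer changed genes than were called in G-line HOM. That run is not used as support for any call.

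Members, roles and lists were chosen with earlier results of these data known. Members called in any of 7 comparisons are given with every library, others by ranges, counts and the largest and smallest changes; members and other genes named outside the rules were chosen after their values were seen. Of the further lists, up to 3 examples were taken by adjusted p, and 1 result that this took is not reported here. Alternatives were DESeq2 1.42.0, its size factors (RLE), other filters, only the compared groups, a replicate block, structural RNA left out, other treatments of the shared pair, libraries left out for atrial or clock genes, and each library left out. Lengths, overlaps and the Rbm20 sequence come from GENCODE M21 on GRCm38, not the files' build, so no coordinates are given.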

Additional observations from a re-analysis of the deposited data

How the results depend on the processing

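Direction held for every called member under every alternative that gave a value: of 429 values, 308 kept their side of the threshold, 121 lost the call and 0 reversed. The calls against WT depended on the shared pair, and both other treatments of it left WT with 1 library. In A-line HET the count moved further, to 7, without A-line HET replicate 1, where 11.6% of all genes were called. With the pair as A-line HOM the members called were 1 in G-line HOM, 0 in G-line HET, 0 in A-line HOM and 0 in A-line HET against WT, and 1 in G-line HOM against G-line HET. With the pair left out they were 2 in G-line HOM and 0 in each of the other 3 groups against WT, and 1 in G-line HOM against G-line HET. With it as A-line HOM, Nufip2 stood at 0.50 in G-line HOM (adjusted p = 0.168) and 0.20 in A-line HOM (adjusted p = 0.986). Without the 3 libraries with atrial transcripts the G-line HOM count against WT was 5 (21.1% of all genes), with every lower call lost. Against G-line HET it was 1 (9.27% of all genes). Without the 2 libraries left out for clock genes, whose clock values are not given here, the count in G-line HOM against G-line HET was 1 (8.89%). DESeq2 called 2 in G-line HET (10.5% of all genes) and 4 in A-line HET (10.3%). Only the compared groups gave 2 in G-line HET (13.3%). Leaving out 1 library gave 3 to 10 in G-line HOM (19.1 to 27.9% of all genes) and 1 to 2 in G-line HET (2.98 to 9.27%). It gave 1 to 3 in A-line HOM (2.31 to 6.74%) and 0 to 7 in A-line HET (3.61 to 11.6%). The count was 1 to 5 in G-line HOM against G-line HET (6.67 to 17.2%). It was 0 to 0 in A-line HOM against A-line HET (0 to 0.0513%) and 0 to 1 in A-line HET against G-line HET (0 to 3.47%). The cause of these moves was not tested, and neither was the part that fewer libraries had in them.

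Replicate numbers do not pair the libraries: 2 of 18 same-numbered pairs had a correlation of deviations over 0.1 and 1 of 12 libraries correlated best with its own number. The replicate block gave 1 member in A-line HOM (2.87% of all genes) and 1 in G-line HOM against G-line HET (11.3%). The median SE of the members was 0.13 in A-line HOM, with 1 library, and 0.09 in each of the other 3 groups against WT, the shallower A-line HET included.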
